A study of Mus musculus with 4 samples.

Results

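The regulator of G protein signalling (RGS) genes described here were Rgs1, Rgs2, Rgs3, Rgs4, Rgs5, Rgs7, Rgs9, Rgs14, Rgs16 and Rgs19, followed in mouse liver with and without an SV40 T antigen transgene. These 10 genes were chosen by symbol, as Rgs2 and its relatives, because of the large difference of Rgs2 between the PEPCK-TAg and wild-type arrays. Every probe set whose single platform symbol is one of them was taken. The rule found 13 probe sets of 9 genes, among 12422 probe sets that are not controls and 8251 genes with a symbol of their own. Rgs1 was listed but had no probe set, so it has no value here. Since the measured values of this comparison chose the genes, their differences are given as a description, with no test.

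RGS proteins bind the activated alpha subunit of a heterotrimeric G protein and speed its hydrolysis of GTP, which ends the signal from a G protein-coupled receptor. They fall into subfamilies by sequence. The R4 genes (Rgs1, Rgs2, Rgs3, Rgs4, Rgs5 and Rgs16) encode for the most part small proteins with little beyond the RGS domain. The R7 proteins (Rgs7 and Rgs9) work as dimers with the G beta subunit Gnb5. Rgs14 is of the R12 subfamily and Rgs19 of the RZ subfamily. Rgs2 stands out among them as selective for Gq alpha, the class through which vasopressin, angiotensin and alpha-1 adrenergic receptors raise calcium in hepatocytes, and its transcript is known as an early response to cAMP and calcium signals.

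The study compared livers of male B6SJL hybrid mice, aged 50 to 66 days, that carried no transgene (wild-type, 2 arrays) or the PEPCK-TAg transgene (2 arrays). All the mice, wild-type ones included, were weaned onto a diet of 65% protein and 10% carbohydrate, which they ate for 4 weeks. The PEPCK promoter, which in liver is active in hepatocytes and is induced by such a diet, drives the SV40 large T and small t oncoproteins, so transgene expression is tied to the hepatocyte and to the diet. Labels number the arrays 1 and 2 in each group, speak of duplicate measurements and do not say whether each came from a separate animal, so the p-values measure only the spread between these arrays, which may be technical.

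Each value is an intensity, the MAS5 signal of 1 probe set on 1 array of the MG_U74Av2 type, on a linear scale. Signals were put on 1 scale by a linear factor per array, raised to a floor of 10.6, below which they have no order, and compared as log2. A probe set was tested where at least 2 of the 4 arrays lay above a signal of 41.3. Scaled signals had a median of 68.5 and 66.6 in the wild-type group against 77.0 and 84.7 in the PEPCK-TAg group, and between 58.1% and 62.8% of the probe sets of an array lay above 41.3. Over the 7877 probe sets tested with limma, 985 passed a Benjamini-Hochberg adjusted p of 0.05, which is 12.5% called. Of these tests 9.10% were called higher in PEPCK-TAg livers and 3.40% lower. The median log2 difference over all probe sets tested was 0.051, and 53.1% of them were higher by sign. Each wild-type array came from a lot of its own and both PEPCK-TAg arrays from a further lot, so lot and genotype cannot be told apart.

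Promoter sequences of Rgs2, of Rgs16, the R4 relative with the largest difference, and of Rgs10, an RGS gene outside the set that rose, are shown because they are the RGS genes whose signals the results turn on. Each is the 250 bases before the RefSeq start site (assembly GRCm38.p6), 5′ to 3′ on the gene's own strand. Capitals mark letters that match a searched motif on either strand.
Rgs2 chr1:144004150-144004399 (minus strand): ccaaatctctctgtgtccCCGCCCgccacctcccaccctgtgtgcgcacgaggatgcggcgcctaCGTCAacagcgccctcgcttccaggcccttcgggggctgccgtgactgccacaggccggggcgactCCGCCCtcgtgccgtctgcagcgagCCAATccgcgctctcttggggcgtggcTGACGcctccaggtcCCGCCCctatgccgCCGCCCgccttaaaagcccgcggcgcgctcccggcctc
Rgs16 chr1:153740103-153740352 (plus strand): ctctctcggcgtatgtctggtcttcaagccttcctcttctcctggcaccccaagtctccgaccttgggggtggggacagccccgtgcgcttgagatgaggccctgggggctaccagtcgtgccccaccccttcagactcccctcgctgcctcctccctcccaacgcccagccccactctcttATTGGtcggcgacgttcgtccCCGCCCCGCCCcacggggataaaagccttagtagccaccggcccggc
Rgs10 chr7:128418173-128418422 (minus strand): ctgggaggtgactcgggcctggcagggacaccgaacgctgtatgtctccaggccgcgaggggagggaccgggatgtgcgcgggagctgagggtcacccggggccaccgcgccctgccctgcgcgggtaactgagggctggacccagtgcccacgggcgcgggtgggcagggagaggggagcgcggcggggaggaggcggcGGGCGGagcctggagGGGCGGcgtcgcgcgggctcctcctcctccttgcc
The motifs, chosen after the signals were seen, were the cAMP response element (TGACGTCA) and its half-site (TGACG, which also lies within the full element), the CCAAT box (CCAAT), the GC box (GGGCGG), the TATA box (TATAAA) and the E2F sites TTTCGCGC and TTTGGCGC. In the Rgs2 window the half-site matched 185 to 181 bases before the start on the opposite strand, and 67 to 63 bases before it on the gene's strand. A CCAAT match lay 94 to 90 bases before the Rgs2 start, and 4 GC boxes began 232, 119, 52 and 38 bases before it. The Rgs16 window held a CCAAT match 68 to 64 bases before the start and GC boxes that began 47 and 42 bases before it and overlapped. Rgs10 had GC boxes that began 50 and 35 bases before its start. No full cAMP response element, TATAAA or E2F match was among the letters of these 3 windows.

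Across all 32851 RefSeq windows of 250 bases, 17.8% held the half-site, 33.8% the CCAAT letters, 32.7% a GC box and 12.4% TATAAA. The full cAMP response element was in 1.55%, TTTCGCGC in 0.256% and TTTGGCGC in 0.417%. The table of promoters had 11 windows for 8 of the 10 genes, with no entry for Rgs1 and Rgs14. Among relatives, Rgs4 also held half-sites, which began 236 and 141 bases before its start. The Rgs2 window was 72.4% G and C, more than 93.6% of all windows, whose median was 52.4%. The Rgs7 window was also 72.4% G and C, the Rgs16 window 66.4% and the Rgs10 window 76.4%. These matches describe letters only, and no binding was measured.

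Among the R4 genes, Rgs2 was the one with a large difference. Its probe set (97844_at) read 23.6 and 14.8 in wild-type livers against 1119.4 and 1094.6 in PEPCK-TAg livers. Both PEPCK-TAg signals lay far above both wild-type ones, and the groups did not overlap. The log2 difference was 5.89 ± 0.32 (moderated SE, n = 2 arrays per group), or 59.2-fold, and 7 of the 7877 probe sets tested differed by more. Wild-type signals of Rgs2 stood above the floor but under the filter level, so this probe set was tested only through the group in which it was high. The wild-type arrays differed from each other by 0.67 on the log2 scale and the PEPCK-TAg arrays by 0.032, so nearly all the spread came from the low signals. Raising the floor to the 40th percentile gave a log2 difference of 4.74, and a pseudocount in place of the floor gave 5.24. Between wild-type array 1 and PEPCK-TAg array 1, which were scanned on 1 day, it was 5.57. Rgs2 rests on this 1 probe set.

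**Figure D1:**
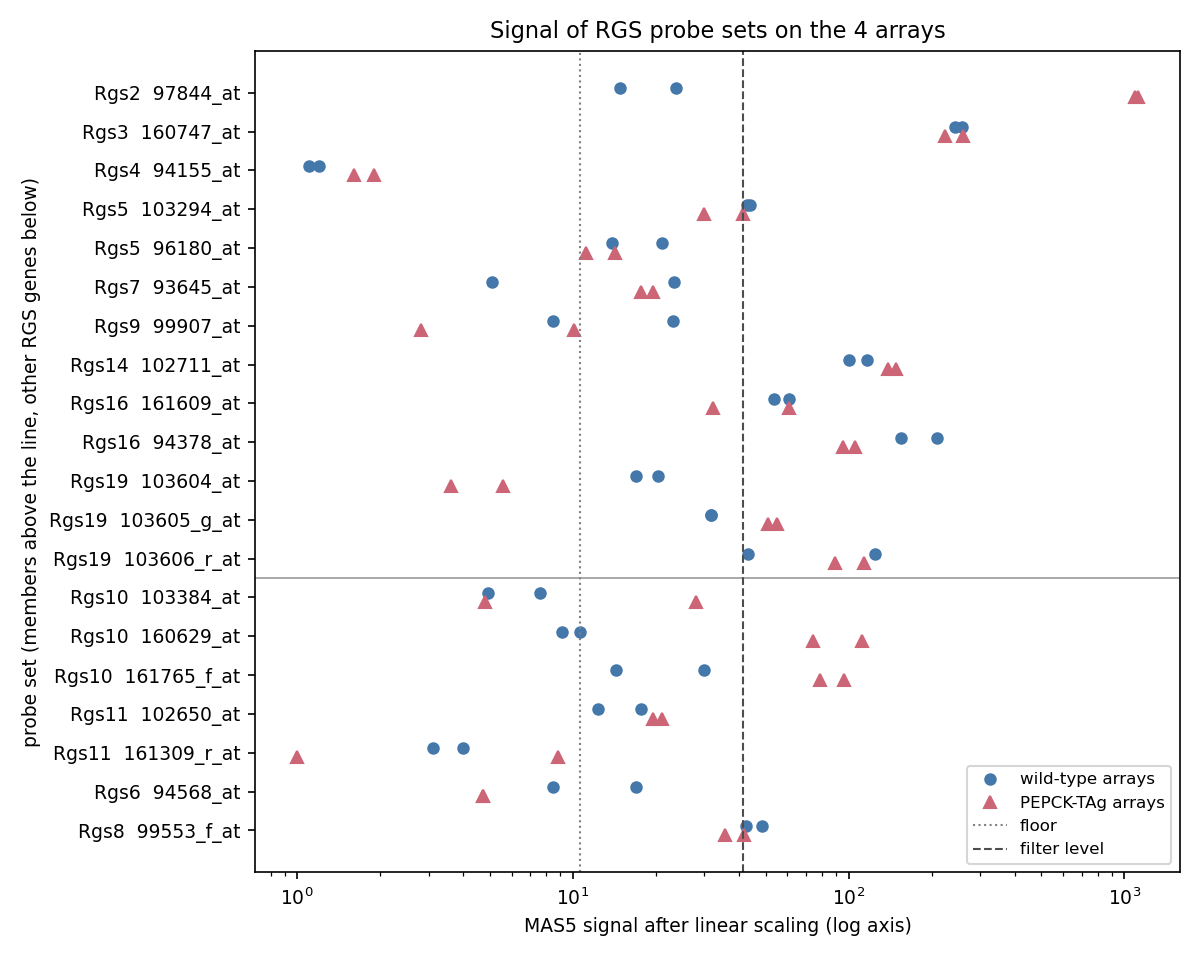
Scaled MAS5 signal (log axis) of the 13 RGS member probe sets, above the horizontal line, and of 7 probe sets of other RGS genes below it, on the 2 wild-type (circles) and 2 PEPCK-TAg (triangles) arrays. The dotted line is the floor of 10.6 and the dashed line the filter level of 41.3; Rgs2 has its PEPCK-TAg signals at 1119.4 and 1094.6, to the right of its wild-type signals.

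Rgs3, which accelerates GTP hydrolysis on Gi and Gq alpha, read 243.4 and 258.0 in wild-type livers against 223.2 and 260.6 in PEPCK-TAg livers (160747_at). The ranges overlapped, and the log2 difference was -0.055 ± 0.25, whose sign changed in 2 of the 21 other settings tried. Rgs4, a brain and heart gene of the same subfamily, was under the floor on every array, at 1.2 and 1.1 in wild-type livers against 1.6 and 1.9 in PEPCK-TAg livers (94155_at), so it has no order between groups. Rgs4 was not tested.

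Rgs5, known from pericytes and arterial smooth muscle, has a pair of probe sets. The first (103294_at) read 44.0 and 42.7 in wild-type livers against 29.9 and 41.5 in PEPCK-TAg livers, close to the filter level. Both PEPCK-TAg signals were lower, one of them by little, and the log2 difference was -0.30 ± 0.41. The second (96180_at), at 13.9 and 21.0 in wild-type livers against 11.2 and 14.2 in PEPCK-TAg livers, overlapped between groups and was not tested.

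Rgs16, an R4 gene known in liver for its response to fasting and feeding, was read by 2 probe sets with unlike values. The first (94378_at) gave 155.2 and 210.1 in wild-type livers against 95.4 and 105.6 in PEPCK-TAg livers. Both PEPCK-TAg arrays were lower than both wild-type ones, with a log2 difference of -0.85 ± 0.30, or 1.80-fold, the lowest among the relatives. Leaving out each array in turn gave -1.07 to -0.63. The second (161609_at) gave 53.5 and 61.0 in wild-type against 60.8 and 32.1 in PEPCK-TAg livers. Only PEPCK-TAg array 2 was below the wild-type pair, the groups overlapped, and the log2 difference of -0.37 ± 0.44 changed sign in 4 of 20 other settings.

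The R7 genes gave low signals. Rgs7, a neuronal gene, read 5.1 and 23.2 in wild-type livers against 19.6 and 17.7 in PEPCK-TAg livers (93645_at). Rgs9, known from photoreceptors and striatum, read 8.5 and 23.1 in wild-type livers against 2.8 and 10.1 in PEPCK-TAg livers (99907_at). In both genes wild-type array 2 was the highest of the 4, the groups overlapped, and no probe set passed the filter. Gnb5, the obligate partner of R7 proteins, was also not tested, at 15.4 and 3.8 in wild-type livers against 20.2 and 50.6 in PEPCK-TAg livers (100122_at).

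Rgs14, an R12 protein that acts on Gi alpha and also carries a GoLoco motif, read 116.9 and 100.3 in wild-type livers against 139.1 and 148.8 in PEPCK-TAg livers (102711_at). Both PEPCK-TAg signals were above both wild-type signals, by a modest 1.33-fold, and the log2 difference was 0.41 ± 0.28. With quantile normalization this difference was 0.14.

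Rgs19, an RZ protein also called GAIP that binds the adaptor Gipc1, had 3 probe sets that went different ways. One (103604_at) read 16.9 and 20.3 in wild-type livers against 5.6 and 3.6 in PEPCK-TAg livers. It was lower without overlap, but under the floor on both PEPCK-TAg arrays and not tested. The next (103605_g_at, a suffix for probe sets that can share probes with related transcripts) read 31.8 on both wild-type arrays against 51.1 and 54.9 on the PEPCK-TAg arrays. It was higher without overlap, by 0.74 ± 0.38 on the log2 scale or 1.67-fold, and passed the filter only through the PEPCK-TAg arrays. The third (103606_r_at, a suffix for relaxed probe design) read 124.8 and 43.2 in wild-type livers against 89.4 and 114.0 in PEPCK-TAg livers. Its wild-type arrays lay on either side of the PEPCK-TAg pair, and the log2 difference of 0.46 ± 0.53 changed sign in 5 of 20 other settings. No direction for Rgs19 can be read from these 3 probe sets.

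Set against its relatives on the same arrays, Rgs2 stood apart in size. The 7 tested probe sets of Rgs3, Rgs5, Rgs14, Rgs16 and Rgs19 had log2 differences between -0.85 and 0.74, with a median of -0.055. Subtracting each from that of Rgs2 left 5.94 for Rgs3, 6.19 for Rgs5 and 5.48 for Rgs14. For Rgs16 the remainder was 6.74 and 6.26, and for Rgs19 5.15 and 5.43. These are descriptions with no test, since the genes were chosen around the difference of Rgs2.

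Of the 13 member probe sets, 8 passed the filter and 5 did not. Among the 8 tested, 4 were higher and 4 lower by sign, 1 (Rgs2) was called, and the groups did not overlap in 5, with 3 higher and 2 lower. Over all probe sets tested, 12.5% were called and the groups did not overlap in 59.8%. Nothing is read from the member counts, because the rule used this comparison and the filter admitted Rgs2 through its high group. The median over the 8 tested was 0.18 on the log2 scale, against 0.051 over all.

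**Figure D2:**
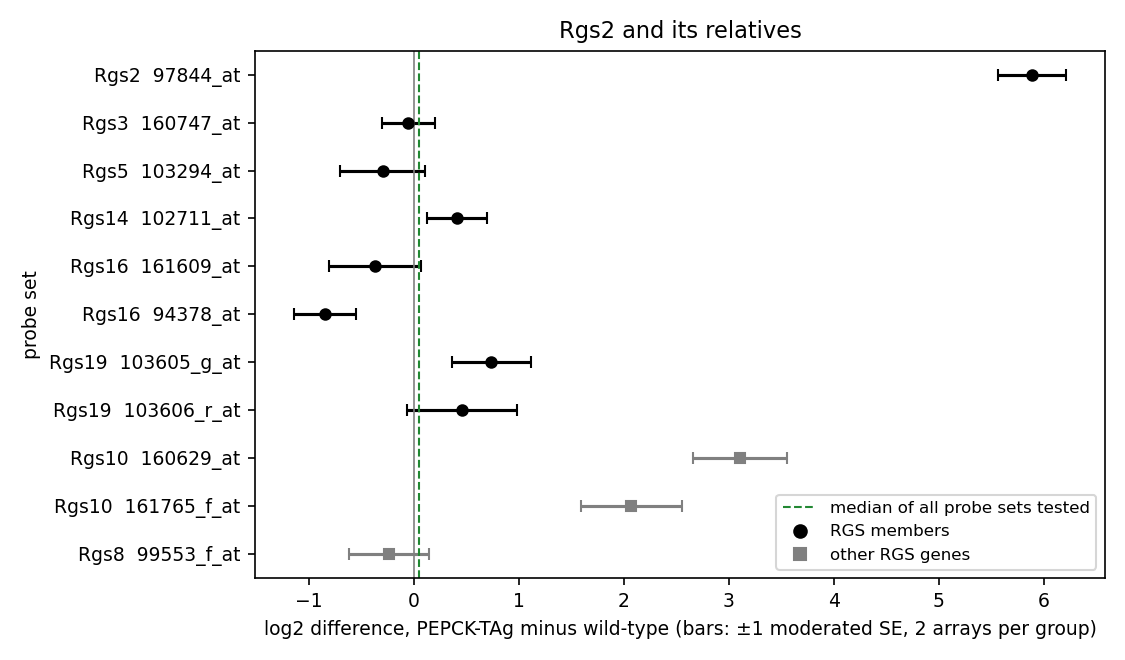
Log2 difference, PEPCK-TAg minus wild-type, of the 8 tested member probe sets (black) and of 3 tested probe sets of other RGS genes (grey), with bars of 1 moderated SE (2 arrays per group). The dashed line is the median over all probe sets tested, 0.051; Rgs2 sits at 5.89 and the other members between -0.85 and 0.74.

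Other RGS genes on the array were Rgs6, Rgs8, Rgs10 and Rgs11, with 7 probe sets. Rgs10, an R12 gene known from immune cells and platelets that acts on Gi alpha, rose on 2 of its 3 probe sets. The first (160629_at) read 10.6 and 9.1 in wild-type livers, close to or under the floor, against 74.3 and 111.8 in PEPCK-TAg livers, without overlap. It was at least 8.60-fold higher, at 3.10 ± 0.45 on the log2 scale (limma, adjusted p = 0.00774, and 0.0749 with no filter). The next Rgs10 probe set (161765_f_at) read 30.0 and 14.3 in wild-type livers against 78.6 and 96.3 in PEPCK-TAg livers, and it too was separated between groups. Its log2 difference was 2.07 ± 0.48, or 4.20-fold (limma, adjusted p = 0.0389, and 0.201 with no filter). Both probe sets passed the filter only through the PEPCK-TAg arrays, the group in which they were high. The third Rgs10 probe set (103384_at) was not tested, with 4.9 and 7.6 against 4.8 and 28.0. Over 16 other settings, Rgs10 stayed higher by sign on both tested probe sets and passed the threshold in 11 and in 9 of them, with adjusted p-values by limma up to 0.129 and 0.272. Neither Rgs10 probe set was called by limma in a fit blocked on the fluidics station, nor without PEPCK-TAg array 1 or 2 on the same probe sets, fits that called none of the 7877, with 1432, 1350 and 1433 unadjusted p-values under 0.05.

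Rgs8, an R4 gene of the brain, read 48.5 and 42.5 in wild-type livers against 35.7 and 41.6 in PEPCK-TAg livers, with a log2 difference of -0.24 ± 0.38 (99553_f_at, limma, adjusted p = 0.710). Rgs6 and Rgs11, both R7 genes, were not tested. Rgs6 read 8.5 and 16.9 against 4.7 and 4.7 (94568_at), and Rgs11 17.6 and 12.3 against 21.1 and 19.6 (102650_at) and 4.0 and 3.1 against 8.8 and 1.0 (161309_r_at). Signals of both genes were low on every array.

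The rest of the G protein cycle was described with 8 lists of genes, of which 133 probe sets were tested, 13 were called higher and 3 lower. That is 12% of those tested, beside 12.5% over all probe sets tested, so the share called was near the background and says nothing particular about the G protein cycle. Of the 16 called, 9 lay above the filter level in 1 group only, the one in which they were high, and so entered the test through it. Over all probe sets, 267 of the 985 called lay above it in 1 group only. With no filter, none of the 16 passed (limma, adjusted p from 0.0679 to 0.201). Without PEPCK-TAg array 1 limma called 0 of the probe sets of these lists, without PEPCK-TAg array 2 it called 1, and without wild-type array 1 it called 27, while 14 were called without wild-type array 2. Over all probe sets, limma gave 1234 and 1406 unadjusted p-values under 0.05 without the one or the other PEPCK-TAg array. The station block called 0 of the lists' probe sets and the replicate block 32. PEPCK-TAg array 2 was the only array run on its fluidics station.

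G alpha subunits, the substrates of RGS proteins, had 12 tested probe sets of 7 genes and none passed limma's threshold, with 2 lower at an unadjusted p under 0.05. Their median log2 difference was 0.072. Gnaq, the alpha subunit on which Rgs2 acts, was not tested, at 33.7 and 17.6 in wild-type livers against 15.0 and 12.8 in PEPCK-TAg livers (99981_at). Its signals lay under the filter level on every array. Gna11, also of the Gq class and picked out after its values were seen, differed by 0.21 (102196_at) and 0.61 (103411_at). Both overlapped between groups and were not called (limma, adjusted p = 0.671 and 0.340). Gnai2, a Gi alpha subunit on which most R4 and R12 proteins act, had log2 differences of 0.050, 0.25 and 0.094 on its 3 probe sets (limma, adjusted p = 0.917, 0.55 and 0.81).

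G beta and gamma subunits had 8 tested probe sets, 3 of them called higher, with a median of 0.75. Gng10 rose from 104.1 and 101.3 in wild-type to 298.4 and 362.6 in PEPCK-TAg livers, a log2 difference of 1.68 ± 0.27 (limma, adjusted p = 0.0109). Gng11 rose from 33.6 and 19.9 to 80.9 and 94.0, by 1.75 ± 0.42 (limma, adjusted p = 0.0421), and passed the filter only through the PEPCK-TAg arrays. Gnb1 rose on 1 of 3 probe sets (94853_at), from 89.2 and 80.2 to 183.1 and 227.4, by 1.27 ± 0.29 (limma, adjusted p = 0.0355). On the other two its differences were 0.42 and 0.36 (limma, adjusted p = 0.439 and 0.436). In each of the 3 called probe sets both PEPCK-TAg arrays were above both wild-type arrays. Over all probe sets tested, the groups did not overlap in 59.8%.

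Other RGS-domain and G protein cycle proteins had 14 tested probe sets, 3 of them called higher, with a median of 0.29. Those called were the 2 of Rgs10 and 1 of Gipc1, the adaptor that binds Rgs19. Gipc1 read 8.2 and 9.2 in wild-type livers against 43.3 and 73.9 in PEPCK-TAg livers on that probe set (93733_r_at), at least 5.34-fold higher (log2 difference 2.42 ± 0.50, limma, adjusted p = 0.0270). Only its PEPCK-TAg signals lay above the filter level. A further Gipc1 probe set (93732_f_at) differed by 1.10 ± 0.36 and did not pass (limma, adjusted p = 0.0993). The third (101683_at) was not tested and was lower by sign, at 7.1 and 12.7 against 5.0 and 6.1.

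Receptor kinases and arrestins, which silence receptors upstream of the G protein, had 4 tested probe sets, 2 of them called higher, with a median of 1.0. Arrb1, or beta-arrestin 1, rose on 1 probe set (162481_f_at) from 46.7 and 33.2 to 177.9 and 246.0, by 2.41 ± 0.35 (limma, adjusted p = 0.00804). The other Arrb1 probe set (100473_at) differed by 0.95 (limma, adjusted p = 0.229). The kinase Grk6 rose from 160.1 and 174.3 to 318.3 and 378.9, by 1.06 ± 0.26 (limma, adjusted p = 0.0438).

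G protein effectors had 29 tested probe sets, 2 of them called higher, and a median of -0.27. Both were adenylyl cyclases, which make cAMP. Adcy2 rose from 16.8 and 18.7 to 74.1 and 90.6, by 2.21 ± 0.40 (limma, adjusted p = 0.0168), and Adcy7 from 59.5 and 69.4 to 164.8 and 167.4, by 1.37 ± 0.29 (limma, adjusted p = 0.0295). Adcy2 was admitted to the test by its PEPCK-TAg arrays alone. Plcb1, a phospholipase that Gq activates, read 1299.2 and 1072.0 in wild-type livers against 615.2 and 668.2 in PEPCK-TAg livers on its brightest probe set (92466_at). Its log2 difference of -0.88 ± 0.23 missed the threshold (limma, adjusted p = 0.0559), and Plcb1 was picked out after its values were seen. Pde7a, picked out in the same way, also missed it but was higher, by 1.49 ± 0.38 (limma, adjusted p = 0.0519). The filter was passed by Pde7a only through the PEPCK-TAg arrays.

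Hormone and transmitter receptors had 36 tested probe sets, 1 called higher and 1 lower, with a median of -0.30. Avpr1a, the Gq-coupled vasopressin receptor of hepatocytes, fell from 172.2 and 204.7 to 77.6 and 77.2 (92532_at), by 1.28 ± 0.28 on the log2 scale (limma, adjusted p = 0.0337). Its other probe set (161189_r_at) differed by -0.52 (limma, adjusted p = 0.377). Sstr2, a Gi-coupled somatostatin receptor, rose from 26.8 and 31.9 to 289.3 and 227.4 on 1 of 3 probe sets (98350_at), by 3.13 ± 0.32 (limma, adjusted p = 0.00251), with the filter passed only in PEPCK-TAg livers. The other Sstr2 probe sets differed by 0.83 and 0.61 (limma, adjusted p = 0.129 and 0.504).

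A pair of further liver receptors, chosen after their values were seen, missed the threshold. Adra1b, the Gq-coupled alpha-1B adrenergic receptor, read 78.9 and 77.8 in wild-type livers against 30.0 and 31.7 in PEPCK-TAg livers. Its log2 difference was -1.35 ± 0.36 (limma, adjusted p = 0.0559), and it passed the filter only through the wild-type arrays. Gcgr, the glucagon receptor that acts through Gs, read 2263.9 and 2422.8 against 1242.6 and 1374.3, a difference of -0.84 ± 0.22 (limma, adjusted p = 0.0519). The groups did not overlap in either, as in 59.8% of all probe sets tested.

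Leukocyte chemoattractant receptors had 9 tested probe sets, 1 of them called higher, with a median of 0.073. Ccr2, the Gi-coupled receptor that brings monocytes into tissue, read 21.1 and 7.1 in wild-type livers against 86.4 and 77.0 in PEPCK-TAg livers. It was at least 5.45-fold higher (log2 difference 2.45 ± 0.49, limma, adjusted p = 0.0235), and this only call of the list lay above the filter level in PEPCK-TAg livers alone.

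The cAMP-responsive and immediate early genes, the class to which Rgs2 itself is often assigned, had 21 tested probe sets, 1 called higher and 2 lower, with a median of 0.24. Atf3, a stress-induced factor, read 8.9 and 10.5 in wild-type livers against 68.9 and 46.2 in PEPCK-TAg livers (104156_r_at), at least 5.33-fold higher (log2 difference 2.41 ± 0.48, limma, adjusted p = 0.0237), with the filter passed through PEPCK-TAg arrays only. The brighter Atf3 probe set (104155_f_at) differed by 1.24 and did not pass (limma, adjusted p = 0.0922), and 161645_r_at was under the floor on every array. Tat, a glucocorticoid- and cAMP-induced enzyme of tyrosine breakdown, fell from 11196.9 and 12860.9 to 4538.6 and 5709.5, by 1.24 ± 0.23 on the log2 scale (limma, adjusted p = 0.0195). Fosl2, of the AP-1 family, was at least 4.69-fold lower, with 56.5 and 88.1 against 8.0 and 21.4 (log2 difference -2.23 ± 0.53, limma, adjusted p = 0.0404). It passed the filter only through the wild-type arrays and was called in 6 of 16 other settings, with an adjusted p by limma of up to 0.241. Pck1, the gene whose promoter drives the transgene, was picked out for that reason and read 3386.1 and 3311.8 in wild-type livers against 1315.0 and 2481.6 in PEPCK-TAg livers. Its log2 difference of -0.89 ± 0.33 did not pass (limma, adjusted p = 0.127).

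**Figure D3:**
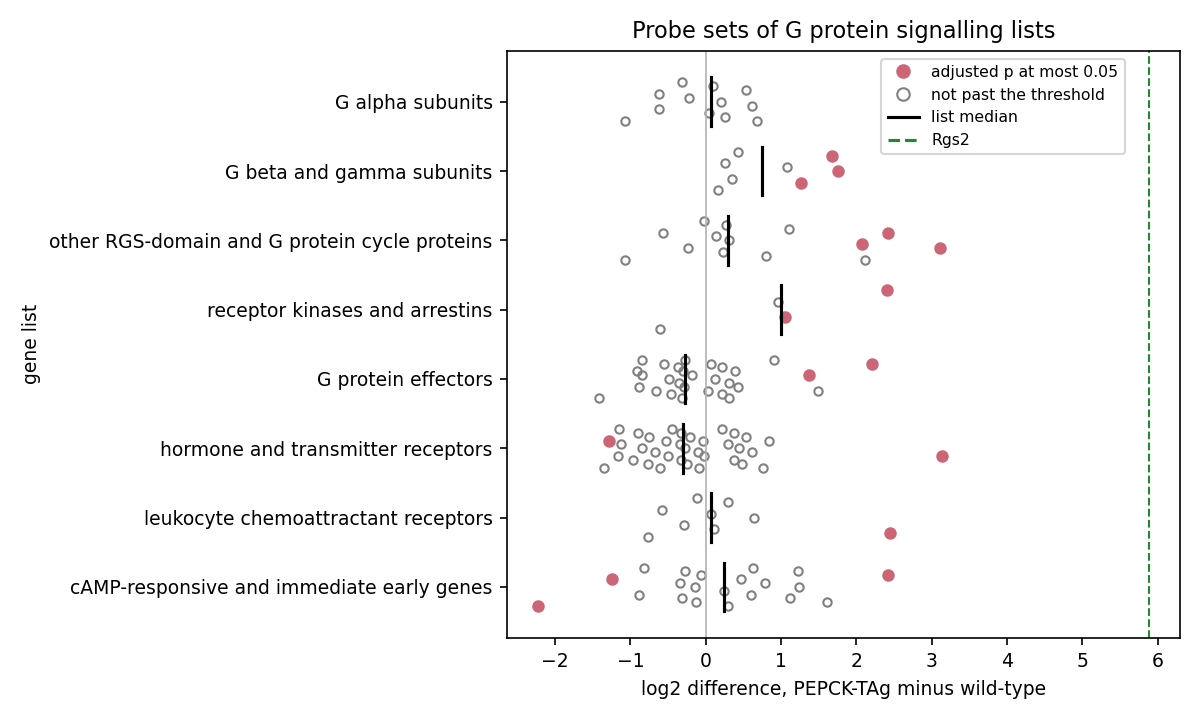
Log2 difference, PEPCK-TAg minus wild-type, of each tested probe set in 8 lists of the G protein cycle (one row per list, points spread vertically only for visibility). Filled points passed an adjusted p of 0.05, black bars are list medians, from -0.30 for hormone and transmitter receptors to 1.0 for receptor kinases and arrestins, and the dashed line marks Rgs2 at 5.89.

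The 5 tested probe sets whose centred log2 values over the 4 arrays lay nearest to those of Rgs2 were of Cdk1, Ngp, Hao2, S100a8 and Kif20a. Cdk1, the mitotic kinase, was nearest at a Euclidean distance of 0.68, with 11.7 and 13.5 in wild-type livers against 863.0 and 645.2 in PEPCK-TAg livers. Ngp, a neutrophil granule protein, followed at 0.75, with 21.9 and 17.3 against 1294.5 and 2063.0. The peroxisomal oxidase Hao2 came next at 0.83, with 1.9 and 5.2 against 603.7 and 354.3. S100a8, a neutrophil calcium-binding protein, lay at 0.86, with 35.5 and 23.8 against 956.8 and 2066.4. The mitotic kinesin Kif20a (160501_at) lay at 0.91, with 9.5 and 8.6 against 406.1 and 337.1. Both groups of arrays were far apart in all 5, and with 4 arrays in 2 groups such a distance mostly measures the size of the difference. All 5, like Rgs2, passed the filter only through the PEPCK-TAg arrays. Hao2 and Kif20a were under the floor on both wild-type arrays, so their distances depend on the floor. No theme is read from these 5.

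For Rgs10 the nearest to probe set 160629_at were Npdc1 at a distance of 0.066, Gfi1b at 0.12, Prkag1 at 0.19, and Pqlc3 and Oxct1 at 0.22. Gfi1b, a repressor of the erythroid and megakaryocyte lineages, read 11.5 and 11.6 in wild-type livers against 75.0 and 111.3 in PEPCK-TAg livers. Those nearest to 161765_f_at were Vamp5, Mrvi1, Ndel1, Rps19 and Hnrnpd. None of the 5 was shared between the probe sets of Rgs10.

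The liver is a mixture, and on these arrays more cells of a type and more RNA per cell cannot be told apart. All 20 probe sets of 17 hepatocyte marker genes were tested and 4 were called lower, as were 3.40% of all probe sets tested. The list was summed over the 17 genes, with the brightest probe set of each. This sum read 140967 and 146994 in wild-type livers against 81804 and 104261 in PEPCK-TAg livers. The list sums that follow were formed in the same way, from 1 probe set per gene, tested or not. The median log2 difference over the 20 hepatocyte probe sets was -0.61. Those called were of Tdo2, by -2.24 and -1.67 on its 2 probe sets, Ttr by -1.76 and Cyp2e1 by -1.05. Alb, or albumin, read 15363.7 and 17285.8 against 9379.4 and 13117.0 and was not called (limma, adjusted p = 0.192). Fgb, Apob and Fga, added because they went the other way by sign, differed by 0.52, 0.40 and 0.27 and were not called. Cyp7a1, added later as one of the dimmest, read 97.3 and 38.1 against 50.8 and 71.9.

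Dividing cell markers were called higher on 24 of 26 tested probe sets, with a median of 3.50. For this list and those that follow, the share called higher over all probe sets tested was 9.10%. The sum of the list read 1844 and 1600 in wild-type livers against 18313 and 16550 in PEPCK-TAg livers. Mki67, a protein of cycling nuclei, was under the floor on both wild-type arrays, at 3.8 and 3.5 (99457_at). It read 1374.3 and 1323.9 on the PEPCK-TAg arrays, while a further Mki67 probe set (161931_r_at) differed by -0.65 (limma, adjusted p = 0.386).

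Neutrophil and granulocyte precursor markers were called higher on 9 of 12 tested probe sets, with a median of 4.42. Their sum read 682 and 628 in wild-type livers against 7872 and 12530 in PEPCK-TAg livers, and Itgam was at the floor on every array. S100a9, a partner of S100a8, rose from 9.3 and 5.3 to 1017.6 and 1461.1. Both PEPCK-TAg arrays had higher sums than both wild-type arrays.

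Erythroid markers were called higher on 11 of 15 tested probe sets, with a median of 2.33 and sums of 3521 and 3646 against 11275 and 16038. Car2, a carbonic anhydrase, read 121.2 and 98.4 in wild-type livers against 2669.4 and 2953.8 in PEPCK-TAg livers. Alas2 went the other way by sign, at 1257.6 and 1111.6 against 568 and 1124.6, with overlap (log2 difference -0.57, limma, adjusted p = 0.323). Hba-x, added after the values were seen, differed by -0.61 (limma, adjusted p = 0.548). Megakaryocyte and platelet markers were called higher on 3 of 5, with a median of 2.32. Their sums read 289 and 282 against 721 and 960, and Itgb3 was at the floor on every array. Nfe2, a factor of platelet formation, read 52.8 and 48.2 in wild-type livers against 273.2 and 366.0 in PEPCK-TAg livers. Gp5, also added later, differed by -1.01 on its tested probe set (161585_at, limma, adjusted p = 0.161). The sums of both lists were higher on both PEPCK-TAg arrays, as were those of the dividing cell, neutrophil and Kupffer cell lists. Signals of Rgs10 were also higher there on its tested probe sets, which passed the filter only through those arrays. Those of 103384_at overlapped between the groups. Over all probe sets tested, the groups did not overlap in 59.8%, so the shared direction is not particular to Rgs10 and these lists.

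Kupffer cell and macrophage markers were called higher on 4 of 15 tested probe sets, with a median of 0.78. At an unadjusted p under 0.05 by limma, 9 were higher and 1 lower. The list's sums read 3036 and 2916 against 6423 and 7448, and Marco was at the floor on every array. Lyz2, or lysozyme, read 137.5 and 154.0 in wild-type livers against 685.8 and 559.6 in PEPCK-TAg livers. Clec4f and Adgre1, added after the values were seen, differed by 0.82 and 0.56 and were not called (limma, adjusted p = 0.128 and 0.348). C1qb, also added later, differed by 1.40 and -0.79 on its tested probe sets (limma, adjusted p = 0.0511 and 0.139). Lymphocyte markers were called higher on 1 of 9, Ccl5, with a median of -0.29 and sums of 785 and 813 against 616 and 645. Cd2, Cd3g, Cd5 and Cd8a were at the floor on every array.

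Smooth muscle, pericyte and stellate markers, which include cells known for Rgs5, were called higher on 1 of 15 tested probe sets, Col3a1, with a median of 0.018. Their sums read 3599 and 3594 in wild-type livers against 2895 and 2972 in PEPCK-TAg livers. Endothelial markers were called higher on 1 of 13, Icam2, with a median of 0.11 and sums of 3254 and 1969 against 2395 and 2571. Of the 58 marker probe sets called over the 9 lists, 24 lay above the filter level in 1 group only, beside 267 of the 985 called over all probe sets. The part of these cell types and of dividing cells in the signals of Rgs2, Rgs5 and Rgs10 was not tested.

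**Figure D4:**
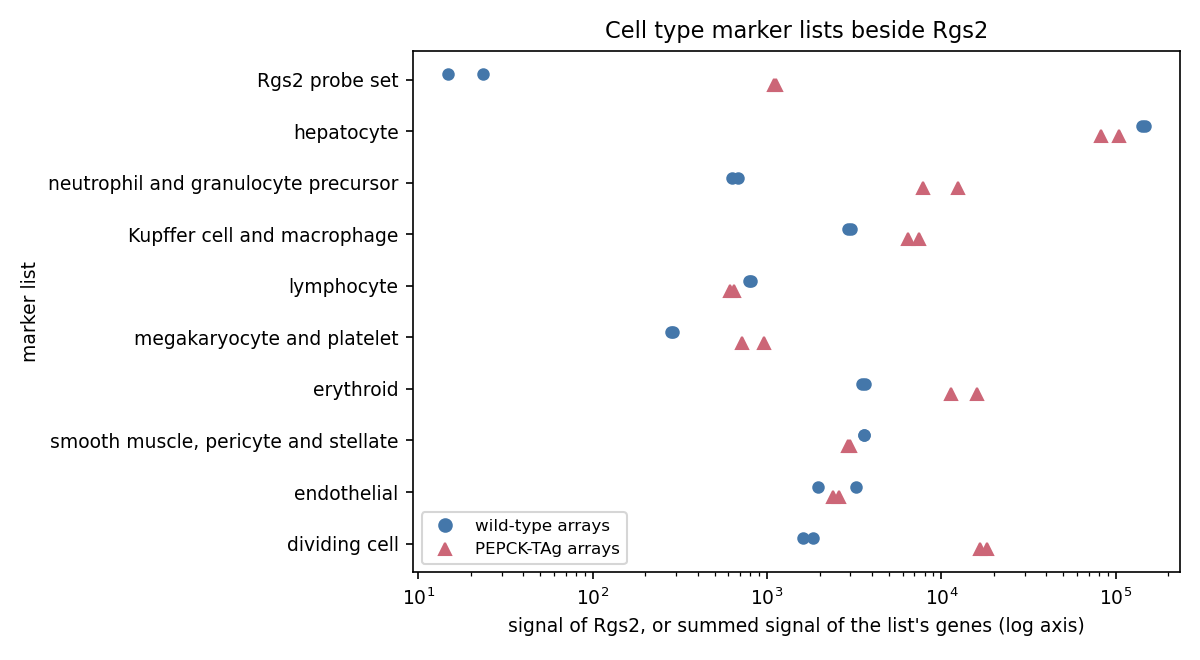
Signal of the Rgs2 probe set and summed signals of 9 lists of cell type markers (log axis) on the 2 wild-type (circles) and 2 PEPCK-TAg (triangles) arrays. Each sum takes the brightest probe set of each gene. The sums of the dividing cell and neutrophil lists lie apart between the groups, at 1844 and 1600 against 18313 and 16550 and at 682 and 628 against 7872 and 12530, whereas the endothelial sums overlap.

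RGS genes sit next to each other beside Rgs2 in the RefSeq order of coding genes, with Rgs13, Rgs1, Rgs21 and Rgs18 on one side, none of which has a probe set here. On the other side lie Uchl5, Ro60, Glrx2, B3galt2 and Cdc73. Uchl5, a deubiquitinase and the immediate neighbour, read 121.9 and 131.1 in wild-type livers against 389.7 and 216.1 in PEPCK-TAg livers. Its log2 difference of 1.20 ± 0.35 did not pass (limma, adjusted p = 0.0712). Ro60 differed by 0.68 ± 0.52 on its tested probe set (92265_f_at, limma, adjusted p = 0.418). B3galt2 and Cdc73 were not tested, and Cdc73 read 15.9 and 20.2 against 25.6 and 32.7.

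Further out, Cfhr2 differed by 0.012 and -0.62 on its 2 probe sets (limma, adjusted p = 0.987 and 0.348), and Pla2g4a, Ptgs2 and Pdc were not tested. Ivns1abp, which lies 14 coding genes away, rose from 209.1 and 217.5 to 569.1 and 585.9, by 1.44 ± 0.23 (limma, adjusted p = 0.0119). Rnf2, a Polycomb ubiquitin ligase, differed by 0.41 (97506_at, limma, adjusted p = 0.408). Among these neighbours Ivns1abp was the one that passed the threshold, by a difference smaller in size than that of Rgs2.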

How the data were processed

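Intensities were deposited by the authors as 1 MAS5 signal per probe set and array, on a linear scale. MAS5 is named, with no version, in the submitters' processing notes. Signals were scaled linearly to 1 common 2% trimmed mean, raised to a floor at the pooled 20th percentile (10.6) and log2-transformed. Probe sets with at least 2 arrays above the 40th percentile (41.3) entered a two-sided linear model without a block in limma 3.58.1 (eBayes with a trend, 6.60 degrees of freedom), run in R 4.3.3. The fit was tested on simulated data. With 2 arrays a side, the smallest p of an exact permutation test is 0.333. A fold with a lower-group array at the floor is a bound.

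Members and gene lists were chosen with earlier results of these data known. Named genes were every RGS probe set, up to 4 called genes per pathway list with the smallest adjusted p, the partners Gnaq, Gnai2, Gnb5 and Gipc1, a few bright or called markers per list, the 5 nearest profiles and the neighbours of Rgs2. Others are said to be chosen later. Symbols came from the platform table, with 1 symbol for 10833 probe sets, several for 396 and none for 1193. Alternatives covered scaling, floor, filter, blocks and each array left out. The labels give same-numbered arrays no link beyond the number, and per the instrument records those numbered 1 were scanned on 1 day with 1 scanner type.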

Additional observations from a re-analysis of the deposited data

How the results depend on the processing

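The log2 difference of Rgs2 kept its sign in all 19 other settings in which it had a value. It was 4.74 with a floor at the 40th percentile and 5.24 with a pseudocount, and 5.55 to 6.22 with an array left out. Without a filter limma called 165 of all probe sets and 1 signalling probe set. With the replicate block it called 1873 and 32; replicate 1 minus replicate 2 correlated at 0.253 between the groups, over 2 pairs. With the station as a block it called 0 of all, 0 RGS and 0 signalling probe sets, with 1432 unadjusted p-values under 0.05 and a smallest adjusted p of 0.129. With an array left out it called 0 to 1689 of all (127 without PEPCK-TAg array 2, 167 without PEPCK-TAg array 1, both with refiltering), 0 to 1 RGS and 0 to 27 signalling probe sets. Refiltered without a PEPCK-TAg array, Rgs2 was not tested. On the same probe sets, chosen after seeing the data, limma called 0 of all without either PEPCK-TAg array, with 1350 and 1433 unadjusted p-values under 0.05. Quantile normalization moved the median over all from 0.051 to -0.088, and its Rgs2 difference was 5.84. Over the arrays, 3′ to 5′ signal ratios ranged from 3.14 to 4.33 for actin and from 2.90 (PEPCK-TAg array 2) to 5.35 (wild-type array 1) for Gapdh, and low signals limit what can be said of Rgs4, Rgs7, Rgs9 and Gnaq.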
